A study of Homo sapiens with 2 samples.

Results

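The subject is a set of 2202 JUNB peaks that were listed in untreated cells, had no counterpart after etoposide, and lay at the edge of a protein-coding gene. They were taken from 2 peak lists that together held 58289 peaks on chromosomes 1 to 22 and X, 32550 from untreated cells and 25739 from etoposide-treated cells. A peak was a member when it shared no base with any peak of the etoposide list and its summit lay within 1 kb of either boundary of a RefSeq protein-coding gene on GRCh38. Members were chosen by the presence of a peak in one list, its absence from the other and the summit position, so these are given as description, not as a result.

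Binding was profiled by CUT&RUN, in which an antibody-tethered nuclease cuts out the DNA around a bound protein and the freed fragments are sequenced. The cells were IMR-90, a line of human lung fibroblasts, and both groups were of this line with an antibody to JUNB. The 1 untreated library had no treatment, and the 1 other library came from cells given etoposide, a drug that traps topoisomerase II on DNA, leaves breaks and can bring fibroblasts into senescence, at a dose and time that the labels do not state. With 1 library per condition differences between conditions have no replicate check and carry no p-value. Intervals below are 95% Wilson intervals for shares and order-statistic intervals for medians. They cover counting error only, and a member's absence from the etoposide list means only that no peak passed the threshold there.

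JUNB is a subunit of AP-1, a pair of basic leucine zipper proteins from the JUN and FOS families that binds the palindrome TGANTCA. In fibroblasts AP-1 is known mainly for binding at enhancers away from gene starts, often with other factors, and for responding to growth signals and stress. Gene starts of widely expressed genes are mostly CpG islands, stretches rich in the CG dinucleotide where the DNA is open and is read by factors such as SP, ETS, NRF1 and NF-Y. Many such starts serve a pair of genes that run away from each other.

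Promoter sequence shows what these places look like. Of the members, 472 had a summit inside a RefSeq promoter window, which runs from 250 bases before a gene's start to 50 bases after it. The 4 strongest of them with TGANTCA on either strand and the 4 strongest without it are printed below, 5′ to 3′ on the gene's strand, as stretches upstream of the start and outside every annotated gene. Windows with fewer than 40 such bases around the site were passed over, as were repeats of the same peak. Capitals mark TGANTCA and the other motifs searched. The stretch of RAB5B, a small GTPase of early endosomes, is chr12:55973699-55973801 on the plus strand. That of GTF2H1, a subunit of the general transcription and repair factor TFIIH, is chr11:18322461-18322566 on the plus strand. NDUFB3, a subunit of respiratory complex I, is shown at chr2:201071860-201071979 on the plus strand, and RAET1L, a ligand of the immune receptor NKG2D, at chr6:150025536-150025655 on the minus strand.
RAB5B: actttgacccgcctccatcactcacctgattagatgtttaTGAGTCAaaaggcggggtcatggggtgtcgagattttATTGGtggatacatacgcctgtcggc
GTF2H1: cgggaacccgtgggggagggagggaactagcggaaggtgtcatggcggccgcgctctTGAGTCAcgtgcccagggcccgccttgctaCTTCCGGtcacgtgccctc
NDUFB3: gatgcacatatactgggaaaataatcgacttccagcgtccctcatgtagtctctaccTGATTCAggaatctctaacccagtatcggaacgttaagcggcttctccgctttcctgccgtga
RAET1L: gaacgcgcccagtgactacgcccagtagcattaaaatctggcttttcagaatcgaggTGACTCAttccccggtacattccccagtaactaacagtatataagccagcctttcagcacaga

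In all 4 the AP-1 letters lay well to the side of the summit. The distance from summit to letters was 77 bp at RAB5B, 135 bp at GTF2H1, 92 bp at NDUFB3 and 166 bp at RAET1L. At GTF2H1 the letters fell outside the listed peak, chr11:18322287-18322502. The other capitals mark an NF-Y match in RAB5B and an ETS match in GTF2H1.

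The 4 strongest members without the letters in the window had a higher -log10 q than any of those. They lay at ORC6, a subunit of the origin recognition complex that loads the replicative helicase, at chr16:46689409-46689481 on the plus strand, and at SRSF6, a serine- and arginine-rich splicing factor, at chr20:43457646-43457735 on the plus strand. The others lay at GPC2, a cell-surface proteoglycan, at chr7:100177571-100177631 on the minus strand, and at PSMD12, a subunit of the proteasome cap, at chr17:67366578-67366638 on the minus strand. A single ETS match, at PSMD12, is in capitals. Parts of these peaks beyond the windows were not searched, so the letters may lie there.
ORC6: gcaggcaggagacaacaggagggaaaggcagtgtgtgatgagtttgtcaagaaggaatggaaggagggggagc
SRSF6: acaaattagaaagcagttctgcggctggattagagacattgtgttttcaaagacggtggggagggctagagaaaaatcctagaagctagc
GPC2: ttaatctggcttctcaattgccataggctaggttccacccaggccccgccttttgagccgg
PSMD12: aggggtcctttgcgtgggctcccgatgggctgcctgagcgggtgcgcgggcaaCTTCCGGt

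The members were mostly weak peaks. A median member had 12 fragments over its summit (11 to 12), a number solved from the fold and p given for each peak, with quartiles of 9 and 15 and a range of 5 to 41. Shared peaks at boundaries had a median of 17 (17 to 18) in the same library. The authors' -log10 q had a median of 6.93 (6.79 to 6.98) among members and 10.9 (10.5 to 11.6) among shared boundary peaks. Members matched the other untreated-only peaks, which had a median -log10 q of 6.99 (6.97 to 7.08) and 12 fragments. With the untreated list cut into 10 equal parts by -log10 q, the strongest part held 20 members and the weakest 369, and 69.8% of members were in the weaker 5 parts. Member peaks had a median width of 240 bp, near the smallest width of 202 bp, and shared boundary peaks had a median of 355 bp.

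**Figure D1:**
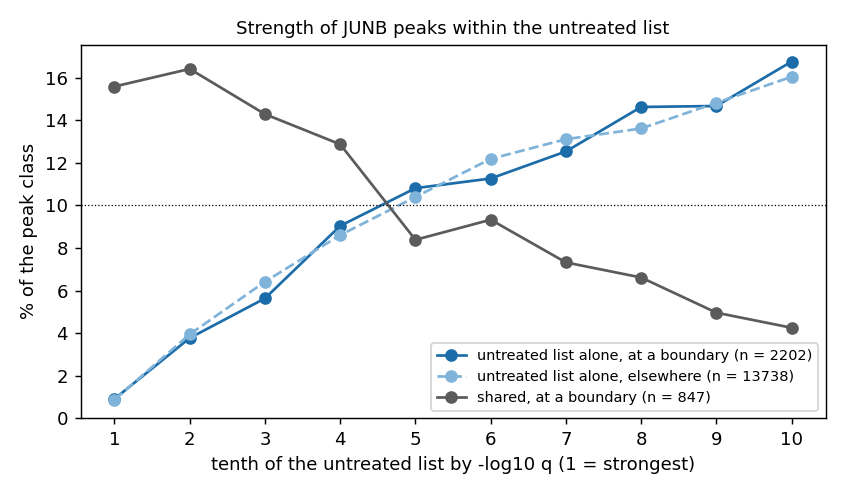
Share of each peak class (percent, vertical axis) in each of 10 equal parts of the untreated list by -log10 q (horizontal axis, 1 = strongest), with a dotted line at an even 10%. The members (dark blue, n = 2202) climb from 20 peaks in the strongest to 369 in the weakest and run beside the untreated-only peaks elsewhere (light blue, n = 13738), and shared boundary peaks (grey, n = 847) go the other way.

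The lists do not give the depth of either library. Local background went down to 0.377 fragments in the etoposide list and 0.482 in the untreated one, a value that moves with depth and also with fragment length, and the smallest peak width was 189 bp and 202 bp. The part of depth in the members' absence from the etoposide list was not tested.

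The nearest etoposide peak was far from most members. The median gap was 29.8 kb (28.2 to 31.8 kb), where it was 16.1 kb (15.6 to 16.6 kb) for untreated-only peaks elsewhere. Only 8.22% of members (7.14% to 9.44%, 181 peaks) had an etoposide peak within 1 kb, and 484 had one within 10 kb. Just inside the limits of the rule lay peaks at INKA2, a regulator of the cytoskeletal kinase PAK4, and RAB5B, with gaps of 3 bp and 20 bp to an etoposide peak and with 8 and 23 fragments. Just beyond that limit a shared peak at G3BP2, a stress granule protein, overlapped its counterpart by 10 bp and had 13 fragments. Around the limit of 1 kb, member summits at HRCT1 and ST20-MTHFS were 998 bp from a boundary, with 16 and 10 fragments. Peaks at THUMPD2 and EGFLAM, with 13 and 39 fragments, stayed out at 1002 and 1003 bp.

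The members lay at gene starts far more often than at gene ends. Strand was known for the genes of 1890 members, and 1689 of these, 89.4% (87.9% to 90.7%), had a gene start within 1 kb. The remaining 201, 10.6% (9.32% to 12.1%), had gene ends alone. The start share was 77.6% (74.4% to 80.5%) among shared boundary peaks and 70.2% (65.1% to 74.9%) among the 403 etoposide-only boundary peaks. Members at starts and at ends alone were equally strong by the counts, with a median of 12 fragments each. No strand was at hand for the genes of 312 members.

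Within the start region, summits sat on both sides of the start rather than on it. Of the 1689 members at starts, 553 (32.7%, 30.5% to 35.0%) had summits from 400 to 151 bp upstream, and 497 (29.4%, 27.3% to 31.6%) lay in the first 200 bp of the gene. The 150 bp just upstream of the start held only 122 summits, 7.22% (6.08% to 8.56%). In all, 52.2% (49.8% to 54.5%) were upstream. Shared boundary peaks were laid out in the same way, with 28% (154 of 550), 27.1% and 5.27% in those stretches, as were etoposide-only boundary peaks, with 23.3%, 22.5% and 8.05%. Members were packed more closely around the start, with 83.4% (81.6% to 85.1%) within 500 bp of it, against 74.9% (71.1% to 78.4%) of shared and 69.5% (164 of 236) of etoposide-only boundary peaks.

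**Figure D2:**
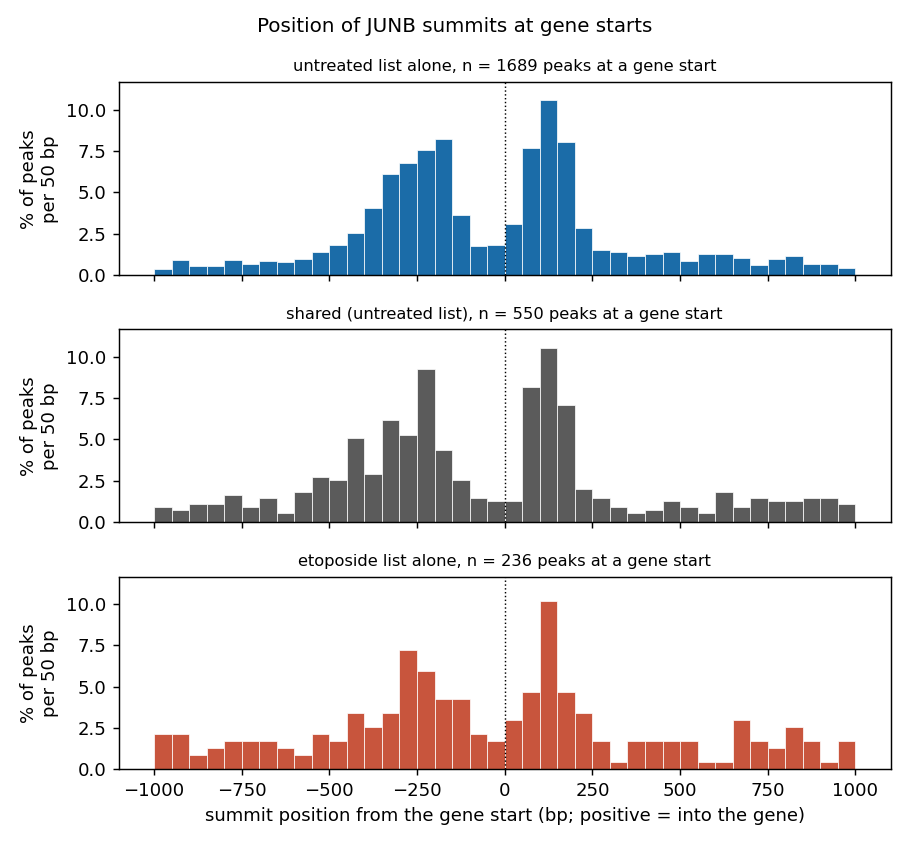
Position of the summit from the nearest gene start (horizontal axis, bp, positive into the gene) as the percent of peaks per 50 bp (vertical axis), for members (top, n = 1689), shared boundary peaks (middle, n = 550) and etoposide-only boundary peaks (bottom, n = 236). In each panel the summits form a broad group upstream and a narrow group inside the gene, with a dip at the start itself, where 7.22% of member summits lie in the last 150 bp upstream.

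The strongest members were at genes of unlike kinds. First was a peak 776 bp upstream of FCRLA, an Fc receptor-like gene of B cells, at chr1:161706320-161706638, with 40 fragments and a -log10 q of 32.8. An etoposide peak lay 108 bp from it. GPR85, an orphan receptor gene of the brain, had a peak with 32 fragments just inside its start, at chr7:113087495-113087780, and the nearest etoposide peak was 21350 bp away. SUCO, a membrane protein gene of the endoplasmic reticulum, had a peak with 34 fragments whose summit was 285 bp inside its start, at chr1:172532545-172533043.

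The peak at ORC6, chr16:46689287-46689556, had 25 fragments on a local background of 1.01. The peaks at FLYWCH2, MEX3C, PPM1B and SRSF6 all lay upstream of a start, 260, 375, 617 and 220 bp from it, with 22, 29, 32 and 25 fragments. MEX3C is an RNA-binding ubiquitin ligase and PPM1B a protein phosphatase. RPL23A, a protein of the large ribosomal subunit, had a peak with 30 fragments near a boundary, at chr17:28719326-28719853. Even these ranked only between 815 and 2751 in the untreated list.

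Gene ends gave a smaller set. The strongest there was 420 bp from the end of EXOC3L4, at chr14:103109949-103110300, with 31 fragments. The next was 336 bp from the end of ALKBH3, a demethylase that repairs alkylated DNA, at chr11:43920486-43920766, with 36 fragments, and it had an etoposide peak 200 bp away. Others were at the ends of TNFRSF6B, a decoy receptor for FAS ligand, with 19 fragments, CDC42EP3, an effector of the small GTPase CDC42, with 29, and TRIOBP, an actin-bundling protein, with 25.

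A summit can lie within 1 kb of several genes, and the 2202 members marked 2503 of the 19974 protein-coding genes, a background of 12.5% against which the gene groups below are set. Shared boundary peaks marked 949 genes (4.75%) and etoposide-only boundary peaks 450 (2.25%). Of the marked genes, 2350 had 1 member, 144 had 2 and 9 had 3. A shared boundary peak was also found at 133 of the 2503 (5.31%, 4.50% to 6.26%), and an etoposide-only boundary peak at 103 (4.12%, 3.40% to 4.97%). Within 10 kb of the gene, 47.7% (45.8% to 49.7%) of marked genes had an etoposide peak, against 38.9% of all genes. Marked genes were also longer, and the part of length in this was not tested. They had a median length of 30.8 kb (29.2 to 32.5 kb), and all genes 24.2 kb (23.6 to 24.9 kb).

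TINF2, a subunit of the shelterin complex that caps telomeres, had 3 members across its start, chr14:24242017-24242270, chr14:24242383-24242655 and chr14:24242801-24243002, with 11, 26 and 13 fragments. SERINC3, a membrane protein that restricts retroviruses, also had 3, with 29, 29 and 16 fragments, of which the first 2 were at its end. Those 2 lay on a local background of 5.66 fragments, with an etoposide peak 174 and 1065 bp away. S100A2, a calcium-binding protein of epithelia, had 2 at its start with 26 and 31 fragments. CDCA3, which triggers entry into mitosis, and USP5, a deubiquitinase, shared 2 peaks near their facing starts, with 26 and 18 fragments. RALY, an RNA-binding protein, had 2 upstream peaks with 13 and 26 fragments. CHP1, a calcium-binding partner of ion exchangers, had 1 peak at each boundary, with 23 and 19 fragments, and so did TRIOBP, with 12 and 25. An etoposide peak lay 133 bp from the peak at the end of CHP1.

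Genes arranged head to head were frequent among the marked genes. Of 15813 genes of known strand, 2162 (13.7%) had the start of a gene on the opposite strand within 1 kb. Among 1906 genes with a member at the start it was 524, 27.5% (25.5% to 29.5%), and among the 13907 others 11.8% (11.3% to 12.3%). A peak within 1 kb of both facing starts counts for both genes, which raises the first share. Shared and etoposide-only boundary peaks gave 23.9% (20.7% to 27.4%) and 59 of 268 (17.5% to 27.4%), so this arrangement was common to all 3 classes. Of 1097 such pairs, 272 had a member at either start. The starts of a pair lie within 1 kb of each other, so a peak near 1 start is often near both. A single peak lay within 1 kb of both starts in 259 pairs. Of these, 189 had starts apart, and the summit lay between the starts in 57 of those peaks.

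The strongest of these peaks served ORC6 and VPS35, whose product belongs to the retromer that sorts endosomal cargo, and its summit was 237 bp upstream of ORC6 with the starts 481 bp apart. POMT2, a protein O-mannosyltransferase, faced GSTZ1, an enzyme of tyrosine breakdown, with 25 fragments at chr14:77320960-77321308. TRMT10A, a tRNA methyltransferase, faced MTTP, a lipid transfer protein, with 25 fragments at chr4:99563775-99564032. RPL36AL, a ribosomal protein, faced MGAT2, an enzyme of N-glycan assembly, with 25 fragments at chr14:49620364-49620623. GPC2 faced STAG3, a meiotic cohesin subunit, with 22 fragments. ALG2, which builds the N-glycan precursor, faced SEC61B, a part of the channel that brings proteins into the endoplasmic reticulum, with 24 fragments.

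Promoters marked by members were mostly CpG-rich. The CpG ratio is the number of CG dinucleotides in a window over the number that its C and G content alone would give. It had a median of 0.851 (0.843 to 0.861) in the 1853 windows with a member within 1 kb of their start, 0.762 (0.757 to 0.767) in all 15812 windows and 0.815 (0.804 to 0.831) in the 593 with a shared peak. A ratio of at least 0.6 was found in 89.4% (87.9% to 90.7%) of member promoters, 79.3% (75.8% to 82.3%) of shared-peak promoters and 65.6% (64.8% to 66.3%) of all. Median GC content differed less, at 63.7% among members and 62.7% overall. The share of promoters holding a member was 1.56% (31 of 1988) at ratios under 0.2 and 16.6% (15.6% to 17.6%) at 0.8 to 1. For shared peaks the same shares were 1.86% and 4.76%, and for etoposide-only peaks 0.654% and 1.99%.

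**Figure D3:**
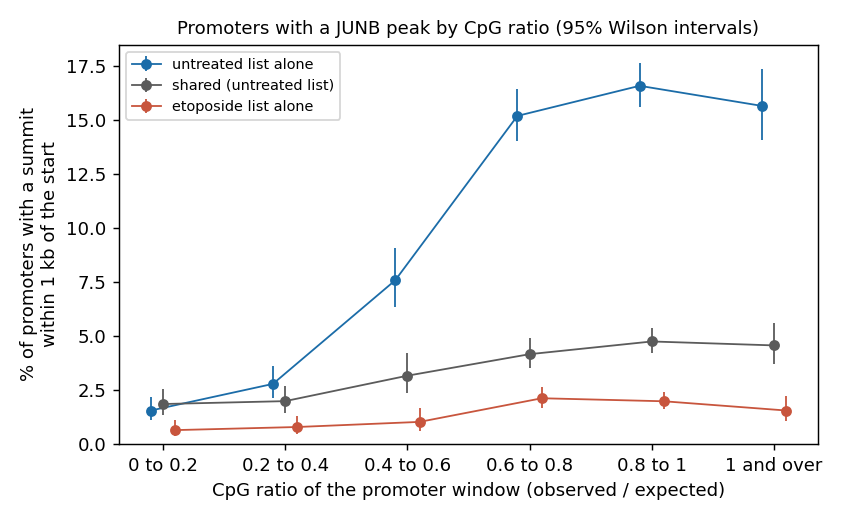
Percent of promoters with a summit within 1 kb of the start (vertical axis) by CpG ratio of the window (horizontal axis), for members (blue), shared boundary peaks (grey) and etoposide-only boundary peaks (red), with 95% Wilson intervals. The member share climbs from 1.56% at ratios under 0.2 to 16.6% at 0.8 to 1, and the shared share from 1.86% to 4.76%.

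The AP-1 letters TGANTCA were about as frequent in member promoters as in promoters at large, and less frequent than in shared-peak promoters. They were in 97 of 1853 windows, 5.23% (4.31% to 6.34%), where 5.70% (5.35% to 6.08%) of all windows held them. Shared-peak promoters held them in 12.6% (10.2% to 15.6%) and etoposide-only promoters in 10.5% (7.29% to 15.0%). CpG-rich promoters hold few such letters, so the shares were also taken by CpG ratio. At ratios of at least 0.6 they were 4.05% (3.20% to 5.11%) for members, 6.17% (4.33% to 8.72%) for shared peaks, 8.87% (5.68% to 13.6%) for etoposide-only peaks and 3.07% for all. Below 0.6 they were 15.2% (10.9% to 20.9%), 37.4% (29.4% to 46.2%), 18.2% (9.51% to 32.0%) and 10.7%. Within each CpG class, then, member promoters lay between all promoters and those of shared peaks, with overlapping member and shared intervals at ratios of at least 0.6. In the 514 windows that held a member summit itself, 29 had the letters (5.64%), 11 of them inside the listed peak and 2 within 50 bp of the summit. In the 122 that held a shared summit, 23 had them (18.9%), 12 inside the peak and 4 within 50 bp. These windows cover only part of each peak, and letters beyond them were not searched.

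Other motifs of gene starts were searched on both strands in the same way. ETS letters, CCGGAAG, were in 23.1% (21.2% to 25.1%) of member promoters, 14.1% of all and 17.4% (14.5% to 20.6%) of shared-peak promoters. SP and KLF letters, GGGCGG, were in 69.7% (67.6% to 71.8%), 58.3% and 63.9%. NF-Y letters, CCAAT, were in 44.8% (42.5% to 47.1%), 36.4% and 44.2%. The NRF1 palindrome was in 4.05% (3.24% to 5.04%), 1.77% and 2.87%, and YY1 letters, AAGATGGC, were in 6.37% (5.34% to 7.57%), 3.86% and 6.91%. The ZBTB33 palindrome was rare everywhere, at 0.863% of member promoters and 0.670% of all. TATA letters, TATAAA, were in 4.70% (3.82% to 5.76%) of member promoters against 9.75% of all and 7.08% of shared-peak promoters. The shares of several of these letters differ with CpG content, so the classes were also compared at ratios of at least 0.6. There the order for SP and KLF letters turned, with 73.7% (71.5% to 75.7%) of member promoters against 77.3% (76.4% to 78.1%) of all and 74.9% of shared-peak promoters. ETS letters were in 24.8% (22.7% to 26.9%), 19.6% and 20.2%, and NF-Y letters in 44.6% (42.2% to 47.0%), 35.4% and 46.4%. The NRF1 palindrome was in 4.53% (3.63% to 5.64%), 2.62% and 3.62%. YY1 letters were in 6.70% (5.60% to 8.01%), 5.25% and 7.87%, and TATA letters in 3.74% (2.93% to 4.77%), 5.01% and 4.68%.

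The cyclic AMP response element TGACGTCA, which heterodimers of JUN and ATF proteins also bind, was in 4.80% (3.92% to 5.87%) of member promoters, 2.56% (2.33% to 2.82%) of all and 2.53% (1.54% to 4.13%) of shared-peak promoters. Etoposide-only promoters held it in 5.26% (3.10% to 8.80%), so a higher share was not particular to members. At CpG ratios of at least 0.6 the shares were 5.19% (4.22% to 6.37%), 3.56% and 2.98%. In windows that held the summit itself they were 36 of 514 (5.10% to 9.54%) for members and 1.64% (0.451% to 5.78%) for shared peaks. TGACGTCA does not contain TGANTCA, so the counts of these 2 motifs are separate. A match is a run of letters and not a measured site.

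**Figure D4:**
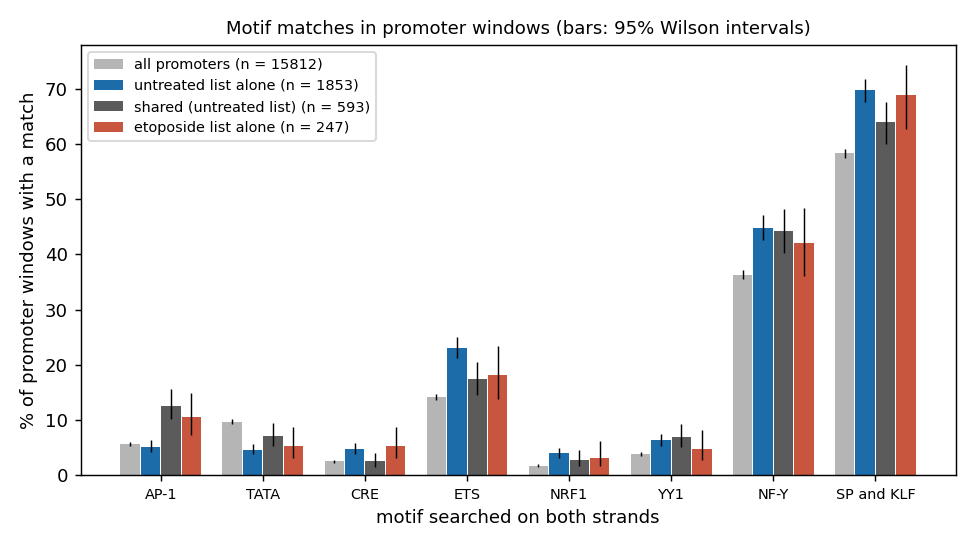
Percent of promoter windows with a match (vertical axis) for each motif (horizontal axis) in all promoters (light grey), member promoters (blue), shared-peak promoters (dark grey) and etoposide-only promoters (red), with 95% Wilson intervals. AP-1 matches stand at 5.23% for members against 12.6% for shared peaks, and ETS matches at 23.1% against 17.4%.

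The classes of genes marked were then read from 28 lists, of which 20 were named by symbol pattern and 8 by individual genes. The lists hold 3150 genes, 414 of them with a member, and 2089 marked genes were in none. Against the 12.5% of all genes, 10 lists had their whole interval above and 6 their whole interval below. Counts at shared and etoposide-only boundary peaks are read against their own shares of all genes, 4.75% and 2.25%. No set test was made, and neighbouring genes can share a peak.

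**Figure D5:**
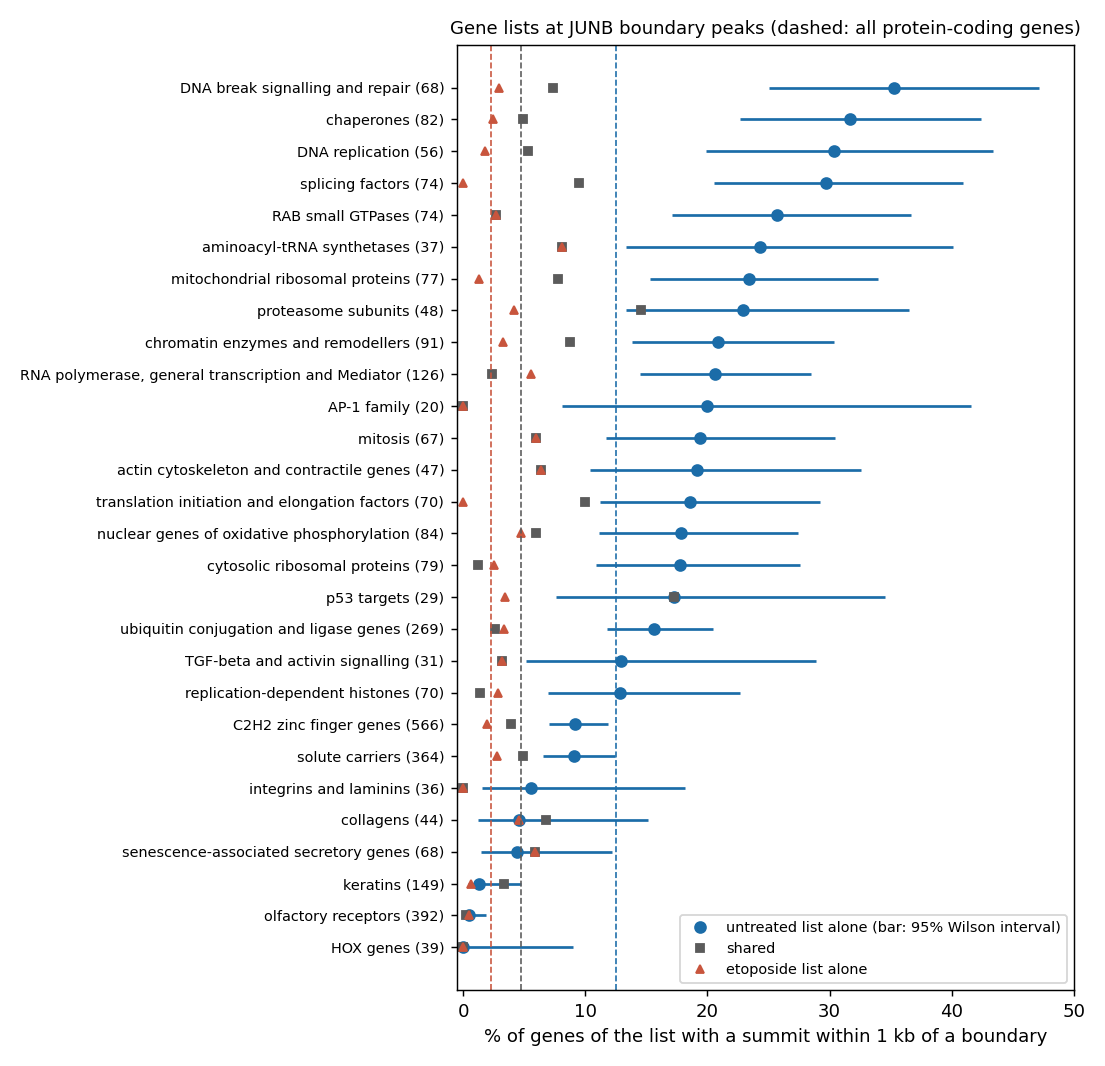
Percent of the genes of each list (vertical axis, list size in brackets) with a summit within 1 kb of a boundary (horizontal axis), for members (blue, with 95% Wilson intervals), shared boundary peaks (grey) and etoposide-only boundary peaks (red), with dashed lines at the shares of all genes. DNA break repair stands highest for members at 35.3%, and HOX genes lowest at 0%.

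Genes of DNA break signalling and repair were marked most often, 24 of 68, 35.3% (interval up to 47.2%). Shared boundary peaks marked 5 (7.35%, 3.18% to 16.1%) and etoposide-only ones 2 (2.94%, 0.810% to 10.1%), with intervals that take in their backgrounds. BRCA2, a gene of homologous recombination, had 19 fragments at chr13:32315921-32316278, with the summit 976 bp inside its start. EXO1, a nuclease that resects breaks, had 15 fragments at chr1:241847669-241848136, and DCLRE1C, the Artemis nuclease of end joining, had 16 at chr10:14954210-14954483. A peak shows occupancy of the place and does not measure the gene's activity.

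Genes of DNA replication were marked in 17 of 56 cases, 30.4% (19.9% to 43.3%), with 3 (5.36%) at shared boundary peaks. After ORC6 came CDC45, a part of the replicative helicase, with 20 fragments at chr22:19479254-19479685, and MCM7, a subunit of the same helicase, with 20 at chr7:100101623-100102050. TIMELESS, which steadies the replication fork, had 13 fragments. PRIM2, the large primase subunit, shared a peak of 15 fragments with RAB23. Mitosis genes were marked in 13 of 67 cases, 19.4% (11.7% to 30.4%), an interval that takes in the background. Among them were CENPN, a centromere protein, with 23 fragments at chr16:81007258-81007484, SMC1A, a cohesin subunit, with 11, KIF20A, a kinesin of cell division, with 12, and AURKB, a mitotic kinase, with 12. Etoposide-only boundary peaks marked 4 of the 67 mitosis genes, 5.97% (2.35% to 14.4%) against 2.25% of all genes.

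Chaperones by symbol were marked in 26 of 82 cases, 31.7% (22.6% to 42.4%), with 4 (4.88%) at shared boundary peaks. The 26 include the readthrough genes DNAJC25-GNG10 and HSPE1-MOB4. The strongest were HSPA13, an HSP70 relative, with 21 fragments at chr21:14382895-14383164, CCT5, a subunit of the cytosolic chaperonin, with 20 at chr5:10249630-10249859, DNAJA3, a mitochondrial co-chaperone, with 14, and DNAJB2, a neuronal co-chaperone, with 21. Proteasome genes by symbol, with assembly factors, were marked in 11 of 48 cases, 22.9% (13.3% to 36.5%). Shared boundary peaks marked 7 others, 14.6% (7.25% to 27.2%) against 4.75% of all genes, so a raised share was not particular to members. PSMD12 had 26 fragments at chr17:67366131-67366615, and PSMC5 and PSMC3, ATPases of the cap, had 21 and 17. Of the ubiquitin conjugation and ligase genes 42 of 269 were marked, 15.6% (11.8% to 20.4%), near the background.

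RNA processing and transcription formed another large group. Splicing factors were marked in 22 of 74 cases, 29.7% (20.5% to 40.9%). SRSF6 had 25 fragments at chr20:43457346-43457811, HNRNPK, an RNA-binding protein, 17 at chr9:83980357-83980622, SRSF1, a serine- and arginine-rich factor, 16 and SNRPD2, a core protein of the spliceosome, 17. Genes of RNA polymerases, general transcription factors and Mediator were marked in 26 of 126 cases, 20.6% (14.5% to 28.5%), with GTF2H1 at 18 fragments, MED20, a Mediator subunit, at 22 and POLR1G, an RNA polymerase I subunit, at 22. Chromatin enzymes and remodellers were marked in 19 of 91 cases, 20.9% (13.8% to 30.3%), among them KDM4A, a histone demethylase, with 24 fragments at chr1:43650090-43650382, ARID4B, a part of a histone deacetylase complex, with 18, and KAT7, a histone acetyltransferase, with 15.

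Genes of protein synthesis fell into 4 lists. Mitochondrial ribosomal proteins were marked in 18 of 77 cases, 23.4% (15.3% to 34.0%), led by MRPS24 with 30 fragments at chr7:43869690-43869970 and MRPL48 with 16. Aminoacyl-tRNA synthetases were marked in 9 of 37, 24.3% (13.4% to 40.1%), among them LARS1, which charges leucine tRNA, with 17 fragments and FARSB, of the phenylalanine enzyme, with 15. Etoposide-only boundary peaks marked 3 of the 37, 8.11% (2.80% to 21.3%) against 2.25% of all genes, so a raised share was not particular to members. Cytosolic ribosomal proteins were marked in 14 of 79 cases, 17.7% (10.9% to 27.6%), and translation factors by symbol in 13 of 70, 18.6% (11.2% to 29.2%), both with intervals that take in the background. RPS14, of the small ribosomal subunit, had 20 fragments 180 bp upstream of its start, and RPS19 and RPL21 had 14 and 15. A single cytosolic ribosomal protein gene had a shared boundary peak (1.27%, 0.224% to 6.83%). Of the 70 translation factor genes, shared boundary peaks marked 7, 10% (4.93% to 19.2%) against 4.75% of all genes.

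Nuclear genes of oxidative phosphorylation were marked in 15 of 84 cases, 17.9% (11.1% to 27.4%). NDUFV3, of complex I, had 23 fragments at chr21:42892545-42893147, NDUFB3 18 and ATP5MC1, of the ATP synthase, 14. Genes with RAB symbols, nearly all of them small GTPases that direct membrane traffic, were marked in 19 of 74 cases, 25.7% (17.1% to 36.7%). Shared boundary peaks marked 2 of the 74 (2.70%, 0.744% to 9.33%). The 19 include RAB11FIP5, a RAB-binding effector, and RAB5IF, which are not GTPases. RAB5B had 23 fragments, RAB28, a GTPase of cilia, 22 and RAB1B, of the route from the endoplasmic reticulum to the Golgi, 15.

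Lists tied to the fibroblast state lay on both sides of the background, and all their intervals took it in. Collagens were marked in 2 of 44 cases, 4.55% (1.26% to 15.1%), which were COL5A2, of fibril-forming collagen, with 12 fragments and COL13A1, of a membrane collagen, with 11. Integrins and laminins by symbol were marked in 2 of 36, 5.56% (1.54% to 18.1%), and 1 of these, ITGB1BP1, is an integrin-binding protein rather than an integrin. The other was ITGA5, of the fibronectin receptor, with 19 fragments at chr12:54419288-54419497. Actin and contractile genes were marked in 9 of 47, 19.1% (10.4% to 32.5%), including ARPC5, of the ARP2/3 complex, with 21 fragments, TAGLN2 with 19 and MYL12A, a myosin light chain, with 21. TGF-beta and activin genes were marked in 4 of 31, 12.9% (5.13% to 28.9%), among them ACVR1, a BMP receptor, with 15 fragments and SMAD4, the common mediator, with 10.

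Secretory genes of senescence were marked in only 3 of 68 cases, 4.41% (1.51% to 12.2%). An untreated peak lay within 10 kb of 51 of the 68, a count with no share of all genes to set it against. The 3 were all weak, with -log10 q from 4.49 to 5.06. PLAU, the urokinase gene, had 20 fragments on a local background of 4.52 at chr10:73909272-73909683. CXCL8, a neutrophil chemokine, had 10 fragments just inside its start at chr4:73740450-73740775, and FGF2, a fibroblast growth factor, had 15 at its end. Shared and etoposide-only boundary peaks marked 4 each of this list, 5.88% (2.31% to 14.2%), against 4.75% and 2.25% of all genes.

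Targets of p53 were marked in 5 of 29 cases, 17.2% (7.60% to 34.5%), an interval that takes in the background. Shared boundary peaks marked 5 as well, where the same interval lies above 4.75%, with 2 genes in both. FDXR, an electron donor of mitochondrial P450 enzymes, had 10 fragments, SESN1, a stress sensor that restrains mTORC1, 10 and BTG2, an antiproliferative gene, 8. The AP-1 family itself was marked in 4 of 20 (8.07% to 41.6%), an interval that takes in the background. No gene of it had a shared or etoposide-only boundary peak. The upper bound of 16.1% for each lies above the 4.75% and 2.25% of all genes. JUND, a JUN family subunit, had 12 fragments 535 bp upstream at chr19:18282114-18282325. ATF7 and ATF2, subunits that bind cyclic AMP elements, had 15 and 11, and MAFF, a small MAF protein, had 17 at chr22:38201603-38201932.

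Replication-dependent histones were marked in 9 of 70 cases, 12.9% (6.91% to 22.7%), at the background. H2AC4, in the histone cluster of chromosome 6, had 20 fragments at its start, and H1-2 and H4C2, in the same cluster, had 14 and 20 at their ends. Zinc finger genes were below it with 52 of 566, 9.19% (7.07% to 11.8%), and solute carriers with 33 of 364, 9.07% (6.53% to 12.5%). ZNF699 had 17 fragments and SLC39A9, a zinc transporter, 23. Olfactory receptors were marked in 2 of 392, 0.510% (0.140% to 1.84%), keratins and their associated proteins in 2 of 149, 1.34% (0.369% to 4.76%), and HOX genes in 0 of 39, with a Wilson upper bound of 8.97%. An untreated peak lay within 10 kb of 2 HOX genes, again with no share of all genes beside it.

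Markers of cell type were set beside these lists as a check of the label, although occupancy does not measure expression. Of 10 fibroblast markers 9 had an untreated peak within 10 kb, and 2 had a member, DCN with 20 fragments and VIM with 17. Of 6 epithelial, 4 endothelial and 5 leukocyte markers, 4, 3 and 3 had an untreated peak within 10 kb, and 0 had a member. Markers of the other cell types thus had such peaks too, and the counts do not single out the fibroblast label. No share of all genes with an untreated peak within 10 kb is at hand, so the counts have no background.

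Members were spread over all chromosomes. The share of genes marked ran from 9.23% to 16.9% among the autosomes, highest on chromosome 14 with 102 of 605 genes. On X it was 5.54% (4.19% to 7.29%), 47 of 848 genes. A boundary of a long non-coding RNA lay within 1 kb of 19.8% (18.1% to 21.5%) of members, 16.4% (14.1% to 19.1%) of shared boundary peaks and 11.4% (8.67% to 14.9%) of etoposide-only boundary peaks, and of 4.64% of untreated-only peaks elsewhere.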

How the data were processed

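CUT&RUN for JUNB was measured in 2 libraries, grouped by their treatment label. Bowtie2 and MACS2 are named in the submitters' processing notes, without versions or settings. The notes name hg38 and mm10, and the lists carry the contig names of GRCh38. The authors deposited 1 peak list per library, and their deposited values are the score, the summit position, the fold (ratio) over local background there, and its p and q as -log10. These values are the authors' and served to describe or rank peaks within 1 list. Total depth is unknown. Fragments at the summit were solved as the whole number that gives the deposited fold, with a pseudocount of 1, and the deposited p from a Poisson tail. This gave a value within 0.001 of -log10 p, or in that proportion for stronger peaks, for 100% of peaks, and was tested on simulated data.

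Here, overlap meant at least 1 bp. Genes, strands and promoter windows came from RefSeq for GRCh38. Strand was known for 15813 of 19974 genes and 15812 had a promoter window (79.2%), of which the window nearest the gene's own start was used. Positions are counted from 1. Named genes were the 12 strongest members, up to 5 per list, genes with several members, head-to-head pairs and members at the edges of the rule. Gene ends named are the 5 strongest. Some genes that this rule picks are not reported here. Members and lists were chosen with earlier results of these data known. Other chromosomes and contigs were left out. Python 3.11.15, pandas 2.3.3 and scipy 1.17.1 were used.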

Additional observations from a re-analysis of the deposited data

How the results depend on the processing

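No paired analysis was possible because each condition had 1 library. Of 44 alternative values, 34 stayed within counting error or, for counts, within 1.5 times of the value reported. The share of members at a gene start was 92.3% within 0.5 kb and 85.6% within 2 kb of a boundary. The median -log10 q of members was 7.78 when both lists were limited to -log10 q of at least 5 and 7.12 when sharing needed 50% of both peaks. Allowing up to 1 mismatch to TGACTCA or TGAGTCA, which takes in all of TGANTCA, gave 42.1% of marked promoters. No such share of all promoters is at hand, so this value cannot be read as a raised share. Promoters that held the summit had a median CpG ratio of 0.839. An alternative chosen after seeing the data kept untreated peaks of -log10 q of at least 9 against all etoposide peaks. It left 582 members at 708 genes, with a median -log10 q of 10.9 and a start share of 90.7%. Of the 28 lists, 21 stayed on the same side of the share of all genes under all 6 alternatives run for them, including 9 of the 10 wholly above and 6 of the 6 wholly below. Mitochondrial ribosomal proteins, translation factors and mitosis went below it, and integrins and laminins above it, under the limit of 9 alone. Histones and TGF-beta genes changed side under 4 of the 6 and p53 targets under 2. The cause of these moves was not tested. Weak peaks limit the lists, since a member near the threshold can be absent from the etoposide list by counting error.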

Other observations

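Families read from the letters that begin gene symbols, chosen after the lists above, held further groups. Members marked 12.5% of all genes and shared boundary peaks 4.75%. Among families of at least 20 genes, those of symbols beginning RAD, which are mostly repair genes, had members at 10 of 20 (29.9% to 70.1%). They had 0 shared boundary peaks, and 20 genes are too few to read this against 4.75%. Centrosomal genes named CEP had members at 19 of 39, 48.7% (33.9% to 63.8%). Shared boundary peaks marked 6 of the 39, 15.4% against 4.75% of all genes, so a higher share was not particular to members. CEP290, a gene of the base of the cilium, had 22 fragments at chr12:88141832-88142135, CEP135 17 and CEP192 14. DDX genes, which encode RNA helicases, had members at 14 of 37, 37.8% (24.1% to 53.9%), with DDX42 at 16 fragments and DDX11 at 19. Shared and etoposide-only boundary peaks marked 3 DDX genes each, 8.11% against 4.75% and 2.25% of all genes. RNA-binding genes named RBM had members at 13 of 39, 33.3% (20.6% to 49.0%), with RBM7 at 23 fragments and RBM23 at 17. Shared boundary peaks marked 1 RBM gene, 2.56%, and etoposide-only ones 3, 7.69% against 2.25% of all genes. Beta-defensins named DEFB had members at 0 of 39 (upper bound 8.97%), and CCL chemokines at 0 of 28 (upper bound 12.1%, close to the 12.5%). Etoposide-only boundary peaks marked 2 CCL genes, 7.14% against 2.25% of all genes, and shared ones 1. Families were ranked by these shares, so no test was made.

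Small RNA genes lay within 1 kb of a few members. A boundary of a tRNA gene was near 11 members (0.279% to 0.892%), and near 4 of 847 shared boundary peaks, 0.472%. A miRNA boundary was near 25 members, 1.14% (0.770% to 1.67%), and near 8 shared boundary peaks, 0.945%. The peak at JUND was also near MIR3188, that at ATF2 near MIR933, and that at HNRNPA3 near MIR4444-1, with 12, 11 and 15 fragments.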
